A study of Homo sapiens with 4 samples.

Results

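The miRNAs described here are those of the miR-34, miR-192, miR-194 and miR-215 groups in PC-3, an established human prostate cancer cell line. They were taken by name from the deposited table, as every entry for miR-34a, miR-34b, miR-34c, miR-192, miR-194 or miR-215, with or without a copy number. The rule found 4 of the 1096 entries (516 with a catalogue name and 580 predicted ones): miR-34a-5p, miR-192-5p, miR-194-5p and miR-215-5p. No entry for miR-34b, miR-34c or a 3p arm of these hairpins was found, so these were not analysed here. The study compared untreated PC-3 cells (control 1 and control 2) with PC-3 cells given apelin, the peptide ligand of the APJ receptor, at 10 µg/mL for 24 h (apelin 1 and apelin 2). All cells were grown in DMEM with fetal bovine serum. Small RNA was sequenced to find miRNAs that differ under apelin, in 1 tumour line without normal prostate cells for comparison.

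A miRNA is a short RNA that guides the silencing complex to messenger RNAs through its seed, bases 2 to 8 from the 5′ end. miR-34a is known as a tumour suppressor that represses cell cycle and survival genes such as CDK6, BCL2, MET and SIRT1. miR-192, miR-194 and miR-215 are known as miRNAs of liver, gut and kidney epithelium, where HNF factors drive their genes.

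The mature sequences, from RefSeq (GRCh38.p14, all 4 matched by name), are given 5′ to 3′ with the seed in capitals, since the seed sets which members can share targets.
miR-34a-5p: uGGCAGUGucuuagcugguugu
miR-192-5p: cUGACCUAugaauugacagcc
miR-215-5p: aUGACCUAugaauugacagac
miR-194-5p: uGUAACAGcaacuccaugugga
miR-192-5p and miR-215-5p had the same seed and were identical at 19 of 21 bases. Counted from the 5′ end, with miR-192-5p first, they differed by C1A and C20A. A read that has lost bases from its ends can therefore fit both, and the sources used here do not say how the authors assigned such reads. Among the RefSeq sequences used, which are not complete, the miR-34a-5p seed was also that of miR-449a and miR-449b-5p. Neither of these had an entry in the deposited table. miR-194-5p shared its seed with no other of these sequences.

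The 4 miRNAs come from 5 hairpin genes (GRCh38, GENCODE 29). MIR34A lies on chromosome 1 at 9151668 to 9151777, on the minus strand, overlapping an exon of its lincRNA host MIR34AHG. MIR192 (64891137 to 64891246) and MIR194-2 (64891355 to 64891439) lie 108 bases apart on chromosome 11, on the minus strand, both overlapping an exon of the lincRNA MIR194-2HG. MIR215 (220117853 to 220117962) and MIR194-1 (220118157 to 220118241) lie side by side on chromosome 1, on the minus strand. This pair sits within IARS2, a gene on the opposite strand, and overlaps none of its exons. Both miR-194 hairpins hold the same mature sequence, shown in capitals in the hairpins below, so the count of miR-194-5p does not say which locus it came from.
MIR194-1: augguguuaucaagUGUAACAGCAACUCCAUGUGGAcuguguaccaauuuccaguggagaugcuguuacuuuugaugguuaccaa
MIR194-2: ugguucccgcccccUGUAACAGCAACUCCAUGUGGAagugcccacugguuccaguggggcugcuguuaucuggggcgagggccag

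The 4 libraries held 5322429 to 6014838 counts each, with 521 to 586 entries above 0. TPM here is the count per 1000000 counts of the library, with no division by length. A read covers a whole mature miRNA, so levels of different miRNAs were compared on this scale. The 4 entries are listed at 22 or 23 nt, while their RefSeq sequences above have 21 or 22 nt. The scale does not correct for unequal capture of different sequences, so orders and ratios between miRNAs are those of counts. The levels of markers of other tissues differed by list. Of 2 liver markers, 1 had a value: miR-122-5p stood at 1.75 to 4.82 TPM. The summed level was 29.1 to 40.4 TPM for blood (3 of 5 names with a value), 1.00 to 2.63 for skeletal muscle (2 of 3) and 0 to 1.5 for stroma and smooth muscle (1 of 2, miR-143-3p, at 0 in control 1 and apelin 2). Most of the blood sum was miR-486-5p (28.2 to 37.1 TPM), while miR-223-3p had 0 to 3.33 TPM and miR-150-5p 0 to 1.33 TPM. Of 2 neuronal markers, 1 had a value. It was miR-9-5p, with 298 to 399 TPM, above every member in each library, and its part in the results was not tested. Of the prostate markers, the basal miR-205-5p stood at 72.3 to 97.7 TPM. Of 3 luminal names, 2 had a value: miR-375-3p at 12.1 to 17.7 TPM and miR-148a-3p at 10.5 to 17.4 TPM.

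PC-3 cells held 3 of these miRNAs at moderate levels and the remaining one at or near 0. miR-194-5p had the highest mean, 221.5 TPM over the 4 libraries (place 114 among the 516 catalogue entries). miR-34a-5p followed at 187.6 TPM (place 122) and miR-192-5p at 110.1 TPM (place 142). miR-215-5p had a mean of 0.878 TPM (place 351). Together they made up 0.0455% to 0.0604% of the counts of a library. Some other miRNAs are listed under several copy names at the same mean level, such as miR-92a-2-3p and miR-92a-3p. The shares and places are not corrected for this. The curve of all catalogue entries by mean level shows how close together the first 3 lie and how far below them miR-215-5p falls.

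**Figure D1:**
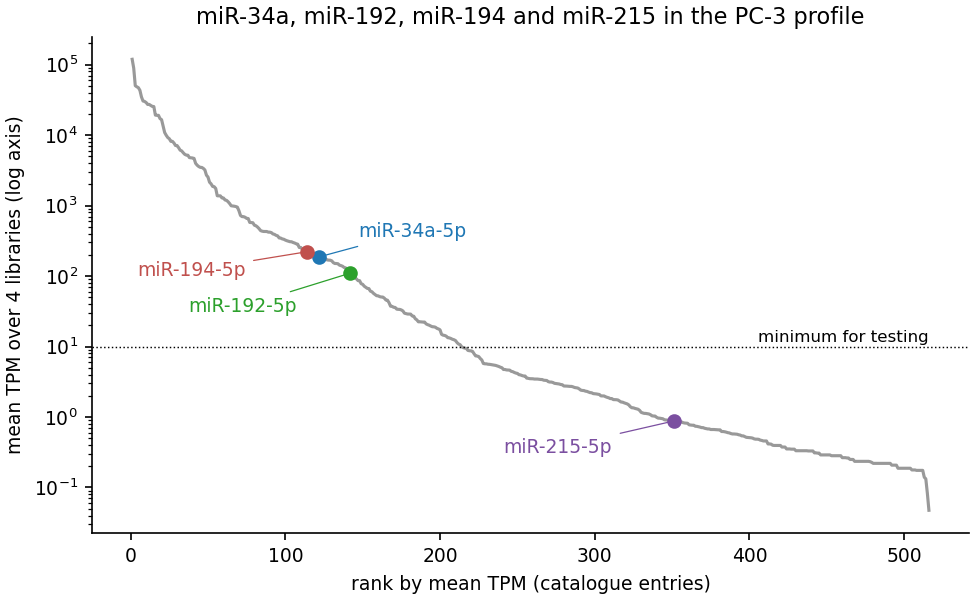
Mean TPM over the 4 libraries (log axis) against the rank of each catalogue entry, with the 4 miRNAs marked and a dotted line at the minimum of 10 TPM for testing. miR-194-5p, miR-34a-5p and miR-192-5p lie at places 114, 122 and 142, above the line, and miR-215-5p at place 351 lies under it.

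The first 2 in this order were not separated by their spread. miR-194-5p ran from 174 to 253 TPM and miR-34a-5p from 172 to 224 TPM, and their ratio within a library was 0.992 and 1.25 in controls 1 and 2, and 1.37 and 1.13 in apelin 1 and 2. miR-34a-5p and miR-192-5p did not overlap: the highest value of miR-192-5p was 123 TPM, under the lowest of miR-34a-5p. Within a library miR-34a-5p stood 1.56 to 1.83 times as high as miR-192-5p.

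miR-34a-5p, the arm that carries the tumour suppressor activity of its hairpin, was present in every library. It had 1057 counts in control 1 (175.73 TPM) and 976 in control 2 (172.35 TPM), then 948 in apelin 1 (178.11 TPM) and 1279 in apelin 2 (224.33 TPM). Of these, 3 libraries lay within each other's 95% exact binomial intervals, which cover counting error only. Apelin 2 stood above them, with an interval of 212 to 237 TPM against 167 to 190 TPM in apelin 1. The control mean was 174.0 ± 2.4 TPM (SD, n = 2) and the apelin mean 201.2 ± 32.7 TPM (SD, n = 2). The difference of 27.2 TPM was smaller than the spread of the apelin libraries.

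miR-194-5p is reported to act on genes such as CDH2 and RAC1. It had 1048 counts in control 1 (174.24 TPM) and 1216 in control 2 (214.73 TPM), then 1299 in apelin 1 (244.06 TPM) and 1443 in apelin 2 (253.10 TPM). Both apelin libraries lay above both controls, by at least 29.3 TPM. The controls differed from each other by more than counting error, with intervals of 164 to 185 and 203 to 227 TPM. The control mean was 194.5 ± 28.6 TPM (SD, n = 2) and the apelin mean 248.6 ± 6.4 TPM (SD, n = 2).

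miR-192-5p, the neighbour of miR-194-2 in one host transcript, is reported to act on ZEB2 and on cell cycle genes. It had 632 counts in control 1 (105.07 TPM) and 558 in control 2 (98.54 TPM), then 608 in apelin 1 (114.23 TPM) and 699 in apelin 2 (122.60 TPM). The apelin libraries were both above the controls, by at least 9.16 TPM, and the libraries of each group lay within 1.07 times of each other. The counting intervals of control 1 (97.0 to 113.6 TPM) and apelin 1 (105.3 to 123.7 TPM) overlapped. With TMM-scaled library sizes these 2 libraries had 107.2 and 111.6. The control mean was 101.8 ± 4.6 TPM (SD, n = 2) and the apelin mean 118.4 ± 5.9 TPM (SD, n = 2). The ratio of miR-194-5p to miR-192-5p was 1.66 in control 1 and 2.06 to 2.18 in the other libraries, so the 2 did not keep 1 proportion between the control libraries.

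miR-215-5p, which has the seed of miR-192-5p, had 20 counts (3.51 TPM, interval 2.14 to 5.42 TPM) in apelin 2 and 0 in control 1, control 2 and apelin 1. A count of 0 allows up to 3 counts, which is 0.499, 0.530 and 0.564 TPM in those libraries. The libraries of the apelin group therefore parted, and no fold is given. In apelin 2 miR-215-5p made up 2.78% (exact interval 1.71% to 4.26%) of the 719 counts of the pair with the shared seed. Entries seen in a single library were common: 134 of the 516 catalogue entries, of which 27 were in apelin 2, and 15 of the 134 had 20 counts or more.

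**Figure D2:**
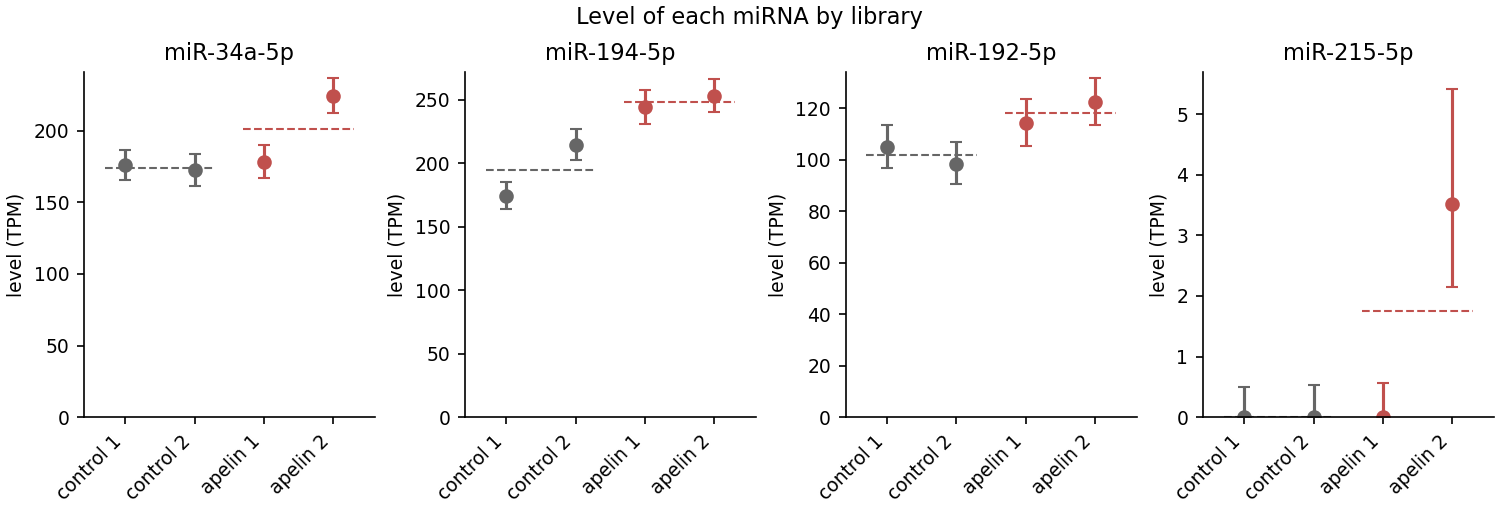
TPM of each miRNA in control 1, control 2, apelin 1 and apelin 2, 1 panel per miRNA with its own axis from 0; bars are 95% exact binomial intervals for counting error (up to 3 counts where the count is 0) and dashed lines are group means. Apelin 2 is the highest library in all 4 panels, and apelin 1 is close to the controls for miR-34a-5p (178.11 against 172.35 and 175.73 TPM).

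None of the 3 tested members passed the test between apelin and control, and miR-215-5p was too low to be tested. edgeR's quasi-likelihood test was fitted on the counts of all 263 entries with a mean of 10 TPM or more, which 3 of the 4 members reached, and it called 0 entries (0%). It left 15 entries (5.70%) at an unadjusted p under 0.05, none of them a member, DESeq2 called 53 (20.2%), again no member, or 0 when run on the 207 of these entries with a catalogue name and above 0 in every library, and limma on log2(TPM + 1) called 4. The nearest member was miR-194-5p, with a log2 fold change of 0.38 (SE 0.16, 95% interval -0.13 to 0.89, edgeR adjusted p = 0.627). miR-192-5p had 0.24 (SE 0.17, interval -0.30 to 0.78, edgeR adjusted p = 0.650), and miR-34a-5p had 0.23 (SE 0.21, interval -0.46 to 0.93, edgeR adjusted p = 0.688). As folds, the intervals ran from 0.914 to 1.85 for miR-194-5p, from 0.812 to 1.71 for miR-192-5p and from 0.728 to 1.9 for miR-34a-5p, so each held both a fall and a rise. Nothing in the labels places the libraries of a group in different cultures. The p-values then rest on the spread among these 4 libraries alone, which may be technical.

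The 3 tested members had positive log2 fold changes, against a median of -0.018 over all 263 tested entries, of which 130 (49.4%) were positive. Both apelin libraries stood above both controls for 3 of 3 in TPM, and 55 of 263 tested entries (20.9%) did so. With TMM-scaled library sizes it was 2 of 3, against 21.3% of tested entries. There miR-34a-5p had 174.0 in apelin 1, below the 179.3 of control 1. All 3 were highest in apelin 2, as were 63 of the 207 tested catalogue entries above 0 in every library (30.4%). Without apelin 2 the log2 fold change was -0.047 for miR-34a-5p, 0.085 for miR-192-5p and 0.25 for miR-194-5p. The median over all entries tested in that fit was -0.059. Without apelin 1 that of miR-34a-5p was 0.41. miR-194-5p stood at 0.24 without control 1, and miR-192-5p at 0.15 without control 2. Whether the members differ from each other in this contrast was not tested.

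**Figure D3:**
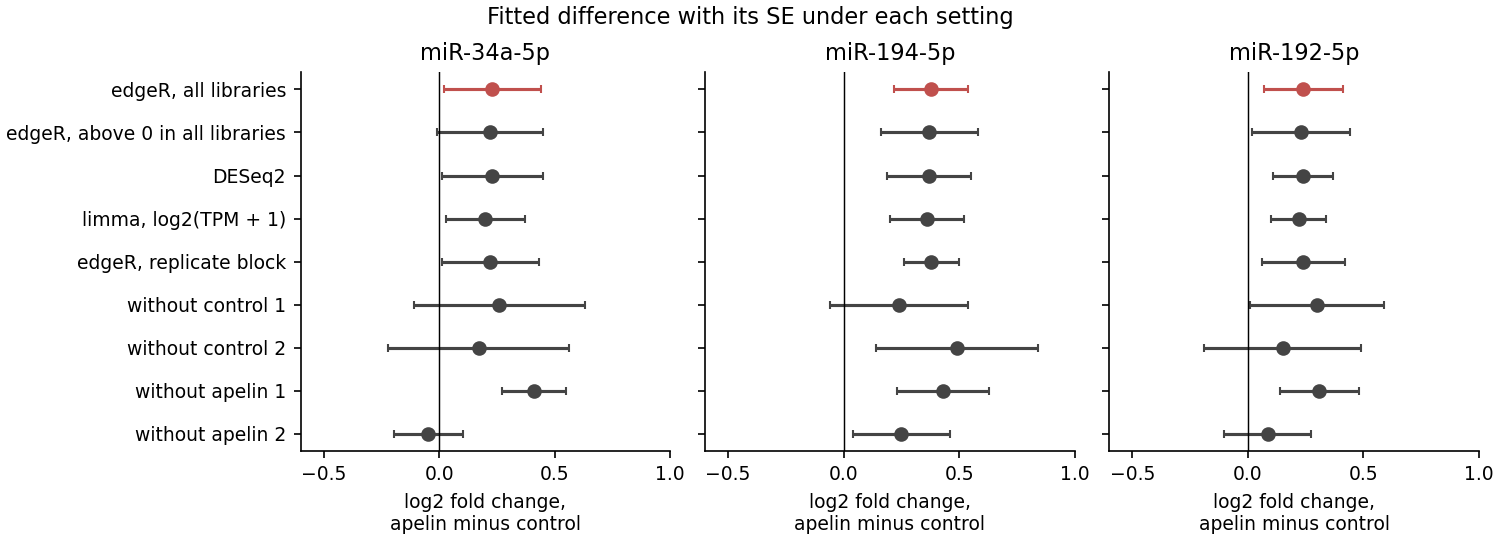
Log2 fold change (apelin minus control) of the 3 tested miRNAs under 9 settings, as points with bars of 1 SE; the line marks 0. miR-194-5p stays between 0.24 and 0.49 over these settings, while miR-34a-5p moves from 0.41 without apelin 1 to -0.047 without apelin 2.

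The entries most like each member over the 4 libraries were taken by the root mean square difference of centred log2(TPM + 1) values, among the 206 other tested catalogue entries above 0 in all libraries. Nearest to miR-34a-5p were miR-200a-3p (0.028), miR-9-5p (0.031) and miR-30a-5p (0.032). miR-200a-3p, of the family that represses ZEB1 and ZEB2, had 906 and 903 TPM in the controls, 929 TPM in apelin 1 and 1216 TPM in apelin 2, so it too was high in apelin 2 alone. Nearest to miR-194-5p were miR-326 (0.047), miR-374a-5p (0.059) and miR-148b-3p (0.076), and nearest to miR-192-5p were miR-542-3p (0.048), miR-7-5p (0.052) and miR-2277-5p (0.055). Some of these were low: miR-326 had 18.3 to 24.8 TPM, miR-542-3p 20.7 to 28.2 TPM and miR-2277-5p 10.2 to 13.5 TPM. The order takes no account of counting error, so close places may not be told apart. The host partners miR-192-5p and miR-194-5p were not each other's nearest, at a difference of 0.16: miR-192-5p came at place 24 of 206 for miR-194-5p, and miR-194-5p at place 56 for miR-192-5p. miR-34a-5p, from another locus, came at place 10 for miR-192-5p (0.085). These are descriptions over 4 libraries that share each library's depth and composition.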

How the data were processed

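Small RNA from 2 control and 2 apelin-treated PC-3 libraries was analysed. The authors deposited raw read counts and TPM per mature miRNA. Their TPM is the count per 1000000 of the library total, within 0.00499 in 3 libraries and 0.151 in apelin 2. The deposited length in nt served no test. Per the submitters' processing notes, Trimmomatic 0.30 trimmed the reads and DESeq2 was among the tools. The sources used here do not give the aligner, catalogue or build.

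Groups came from the sample titles. Entries with a mean of 10 TPM or more were tested with edgeR (quasi-likelihood, TMM, two-sided, Benjamini-Hochberg over all 263 entries, threshold 0.05). Each SE is the absolute log2 fold change divided by the root of the F statistic; intervals are at 95%. At 10 TPM a library holds 53.2 to 60.1 counts. No label names molecular identifiers, so counting intervals may treat PCR copies as separate molecules. Where the groups are 2 against 2, an exact permutation test cannot go below 0.333, so none was run. The code was tested on simulated data. Their spread was much smaller than the one fitted over all tested entries, so that test does not show what the main fit could detect. The main fit had a common biological coefficient of variation of 91.9% over all tested entries. This common value is not the spread of the members, whose SDs are given above. Alternatives were other scalings, filters and pseudocounts, DESeq2, limma, a replicate block and leaving out each library. All members are named, with the markers of other tissues and the 3 entries most like each tested member; the planned lists of related miRNAs are not reported here. The members and markers were chosen with earlier results of these data known. Versions were Python 3.11.15, scipy 1.17.1, pandas 2.3.3, DESeq2 1.42.0, limma 3.58.1, edgeR 4.0.16 and R 4.3.3.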

Additional observations from a re-analysis of the deposited data

How the results depend on the processing

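Over 16 alternatives to the edgeR fit no tested member was called (adjusted p from 0.140 to 0.974). With all libraries kept the log2 fold change stayed at 0.35 to 0.39 for miR-194-5p, 0.20 to 0.25 for miR-192-5p and 0.19 to 0.25 for miR-34a-5p. With 1 library left out it ran from 0.24 to 0.49, from 0.085 to 0.31 and from -0.047 to 0.41. The last reversed without apelin 2 (-0.047, against a median of -0.059 over all entries of that fit), and the cause was not tested. The count of called entries, 0 of 263 in the main test, was 52 of 1096 with no filter and 53 of 263 with DESeq2. With limma, also on 263 entries, it was 4 at a pseudocount of 1, 5 at 0.1 and 4 at 10. It ran from 0 to 19 with 1 library left out. With a replicate block it was 0, and members did not change side (miR-194-5p 0.38, adjusted p = 0.261); same-numbered deviations correlated at 0.318 over 207 entries, but no label ties libraries of the same number together. DESeq2 on the 207 tested catalogue entries above 0 in all libraries, added after seeing the data, called 0 (26 at an unadjusted p under 0.05). The planned share of the 5p arm was not run, since the table used here has no 3p member. At 948 to 1443 counts per library, counting error was smaller than the gap between the apelin libraries for miR-34a-5p and between the controls for miR-194-5p. miR-215-5p is under the filter, and its fitted value without a filter depends on the prior count and is not given.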
